A study of Mus musculus and Homo sapiens with 20 samples.

Results

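Trimethylation of histone H3 at lysine 27 (H3K27me3) was mapped by CUT&Tag, in which an antibody guides the Tn5 transposase to the mark, in mouse embryonic stem (mES) cells with and without Tet2. Of the 20 libraries of the series, 4 were used for this comparison: 2 of Tet2 WT mES cells and 2 of Tet2 KO mES cells, all with the same antibody. The WT and Tet2-/- lines were gifts from another laboratory, and both genotypes were grown in serum with LIF, CHIR99021 and PD0325901 and moved onto gelatin over 2 passages to clear feeder cells. The study's methods call its CUT&Tag replicates biological, without saying whether they were separate clones or cultures, so p-values measure the spread between these libraries. They are called WT 1, WT 2, KO 1 and KO 2 by genotype and replicate number, and 4 values given in a row follow that order. Each library is a list of broad peaks with positions only, on mm10, and the number of reads behind a list is unknown. In bulk chromatin, fewer cells with the mark and less of it per cell cannot be told apart. The question was how the loss of Tet2, an enzyme that oxidizes 5-methylcytosine in DNA and in RNA, goes with the extent of this mark.

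H3K27me3 is written by Polycomb repressive complex 2 (PRC2), whose catalytic subunit is Ezh2 or Ezh1, and it is found over genes that are kept silent. In ES cells it covers CpG islands at the starts of developmental regulators such as the Hox genes, where PRC1 also places ubiquitin on histone H2A (H2AK119ub). Active CpG-rich promoters, such as those of housekeeping genes, usually carry little of it.

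Peak lists were compared over the 19 autosomes without the distal parts of chromosomes 6 (from 81 Mb) and 13 (from 89 Mb), which are given separately at the end. A promoter was the 2-kb window centred on the annotated start of a protein-coding gene and was called marked when a peak touched it. A gene body ran from 1 kb past the start to the gene's end in genes of at least 3 kb. This left 19981 promoters and 17960 gene bodies outside the 2 distal parts. A promoter marked in both WT and in neither KO library was called lost, and the reverse was called gained. A gene body was called lower or higher when the genotypes did not overlap and lay at least 10 percentage points of covered bases apart.

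The 250 bases before the gene start are shown for 4 promoters of different outcomes, with each CpG dinucleotide in capitals (GRCm38, on the strand of the gene). Phlda3 and Acsf2 lead the lost promoters, Gm7030 leads the gained ones, and Dppa2 stands for a pluripotency gene with no peak in any library. Phlda3 lies at chr1:135765869-135766118 (plus strand), Acsf2 at chr11:94601872-94602121 (minus), Gm7030 at chr17:36129426-36129675 (minus) and Dppa2 at chr16:48303658-48303907 (plus).
Phlda3: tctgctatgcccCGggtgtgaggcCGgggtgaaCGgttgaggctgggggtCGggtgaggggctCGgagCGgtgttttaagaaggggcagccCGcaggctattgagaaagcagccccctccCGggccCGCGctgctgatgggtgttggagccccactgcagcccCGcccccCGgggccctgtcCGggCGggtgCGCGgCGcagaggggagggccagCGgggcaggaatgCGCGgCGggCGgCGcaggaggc
Acsf2: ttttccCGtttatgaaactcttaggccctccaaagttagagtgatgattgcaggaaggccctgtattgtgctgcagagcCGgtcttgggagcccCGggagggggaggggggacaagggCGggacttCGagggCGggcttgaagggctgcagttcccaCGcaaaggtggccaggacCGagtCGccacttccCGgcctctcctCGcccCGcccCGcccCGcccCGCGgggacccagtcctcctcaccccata
Gm7030: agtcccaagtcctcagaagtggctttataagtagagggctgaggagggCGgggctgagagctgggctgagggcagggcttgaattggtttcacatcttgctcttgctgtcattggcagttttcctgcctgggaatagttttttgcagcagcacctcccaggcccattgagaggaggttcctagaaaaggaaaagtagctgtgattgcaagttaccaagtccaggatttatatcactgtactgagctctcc
Dppa2: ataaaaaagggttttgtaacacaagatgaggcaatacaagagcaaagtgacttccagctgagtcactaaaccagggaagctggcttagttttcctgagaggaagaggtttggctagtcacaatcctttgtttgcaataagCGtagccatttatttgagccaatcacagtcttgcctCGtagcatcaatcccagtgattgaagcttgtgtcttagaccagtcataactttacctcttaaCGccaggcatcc

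These windows hold 23 CpG in Phlda3, 16 in Acsf2, 1 in Gm7030 and 3 in Dppa2. The Dppa2 promoter was covered at 0 in all 4 libraries. Over the same 250 bases the lost promoters had a median of 15 CpG, against 11 for promoters marked in all 4 libraries, 5 for those marked in none, 3 for gained promoters and 9 for all tested. At least 10 CpG were present in 69.4% of lost promoters and in 47.2% of all promoters. Lost promoters thus held more CpG than kept ones, and gained promoters held few.

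Peaks covered 175.5 Mb in WT 1, 216.0 Mb in WT 2, 202.7 Mb in KO 1 and 141.3 Mb in KO 2. KO 1 lay between both WT libraries and KO 2 below them, so the genotypes overlapped (mean change -12.1%, exact permutation p = 0.667, adjusted p = 0.741 over 10 tests). Peaks numbered 101914 and 112035 for WT, against 118243 and 96494 for KO, with a mean change of 0.37% and again an overlap. Without KO 2 the mean covered length was 3.53% higher in KO than in WT. KO 1 shared more of its covered bases with WT 2 (Jaccard index 0.611) and with WT 1 (0.585) than with KO 2 (0.559), while the WT libraries had an index of 0.671. With 2 libraries a genotype, the exact test cannot give a p below 0.333, so none of the tests could pass 0.05, and the text states in each case whether the genotypes overlapped.

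Domains were narrower in both KO libraries by their length N50, but not by their median width. Peaks within 1 kb of each other were joined. The N50 is the width at which domains that wide or wider hold 50% of the domain length. It was 6134 and 7091 bp in WT and 5620 and 4540 bp in KO. The lowest WT value lay above the highest KO value (6612 ± 677 bp against 5080 ± 764 bp, SD, n = 2 each, -23.2%, exact permutation p = 0.333, adjusted p = 0.667). Domains of at least 10 kb held 35.5% and 40.0% of the domain length in WT against 33.5% and 26.9% in KO, also without overlap. In Mb their length overlapped, at 68.2 and 93.9 for WT against 74.2 and 41.8 for KO. The median domain width overlapped, at 778 and 845 bp in WT and 812 and 706 bp in KO. The widest domain measured 154735 and 150225 bp in WT and 137929 and 113591 bp in KO. When all lists were cut to the same covered length the N50 of the genotypes overlapped, at 7769 and 10708 bp in WT and 8026 and 4540 bp in KO.

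**Figure D1:**
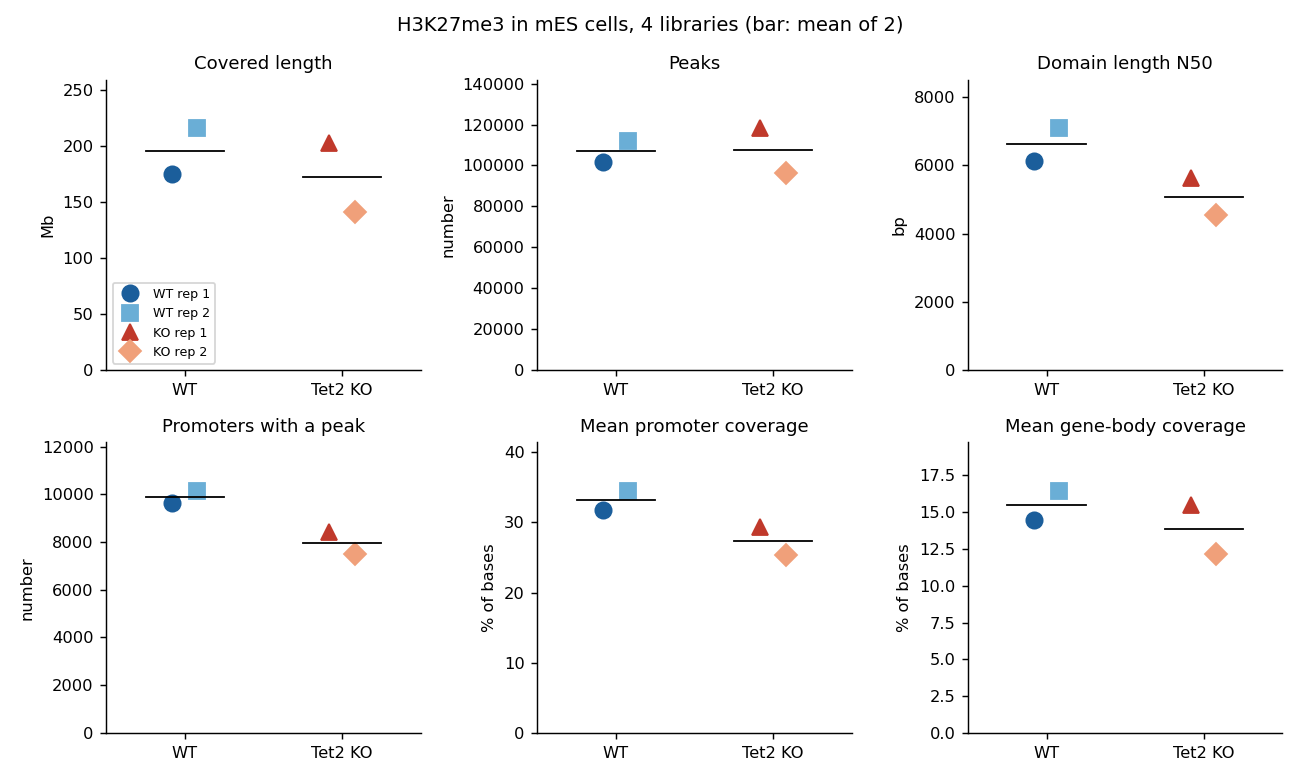
The 6 panels give measures of the H3K27me3 peak lists (y axes, in Mb, numbers, bp or percent of bases) for each of the 2 WT and 2 Tet2 KO mES libraries (symbols), with the mean of each genotype as a horizontal line. Both KO libraries lie below both WT libraries for N50, promoters with a peak and promoter coverage, while covered length, peak number and gene-body coverage overlap.

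Wide domains kept more of their bases than narrow ones. Of the bases of domains found in both WT libraries, 60.8% were covered in both KO libraries. That share was 37.4% for domains under 1 kb, 51.5% for those of 2 to 5 kb, 72.0% for those of 10 to 20 kb and 86.3% for those of 50 kb and over. In the class under 1 kb, KO 1 alone covered 65.6% of the bases and KO 2 alone 42.7%. No base was covered in either KO library for 25.9% of WT domains under 1 kb and for 0 of those of 10 kb and over. In the reverse direction, 79.7% of the bases of domains common to both KO libraries were covered in both WT libraries, from 56.7% under 1 kb to 96.7% at 50 kb and over. Width went with sharing in both directions. In every width class, bases of KO domains were more often covered in both WT libraries than bases of WT domains in both KO libraries. With KO 1 and WT 1 alone this turned in the narrow classes. For domains under 1 kb, KO 1 covered 65.6% of WT-domain bases and WT 1 covered 61.6% of KO-domain bases. At 1 to 2 kb these shares were 72.0% and 70.8%. At 2 to 5 kb they were 75.7% and 78.7%, and the wider classes went the same way as that one.

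The 3 widest stretches covered in all 4 libraries carried developmental and growth control genes. They were 101326 bp at chr7:143369129-143470454 over Kcnq1, a potassium channel gene, and Cdkn1c, an imprinted cyclin-dependent kinase inhibitor; 96983 bp at chr2:33553869-33650851 over Lmx1b, a LIM homeobox gene; and 90553 bp at chr11:96269517-96360069 over Hoxb2 to Hoxb9. Each was covered at 96.1% or more of its bases in every library. The widest stretch covered in both WT and neither KO library was 6181 bp at chr1:63264077-63270257, which lies 3007 bp before the start of Zdbf2, an imprinted gene expressed from the paternal allele. The next were 5709 bp at chr13:51901965-51907673, 53496 bp from Gadd45g, and 5391 bp at chr16:29757803-29763193, 102918 bp from Opa1. The widest stretches covered in KO alone were 4974 bp at chr8:13000406-13005379 in Mcf2l, 4529 bp at chr18:21125562-21130090 in Garem1 and 4331 bp at chr14:28621399-28625729, 93950 bp from Wnt5a.

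In all, 102.2 Mb was covered in all 4 libraries, 20.1 Mb in both WT and neither KO library, and 8.44 Mb in both KO and neither WT library. Promoter windows made up 8.65% of the bases common to all, 5.87% of those of WT alone and 1.5% of those of KO alone, beside 1.59% of the autosomes compared. The density of CpG was 18.4, 14.7 and 13 per kb in these sets in the same order, beside 8.49 per kb of the autosomes. Intergenic sequence made up 56.7% of the WT-only bases and 55.5% of the KO-only bases, beside 59.2% of the autosomes compared.

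Fewer promoters were marked in both KO libraries than in either WT library. A peak touched 9654 promoters in WT 1 and 10143 in WT 2, against 8414 in KO 1 and 7513 in KO 2. These are 48.3%, 50.8%, 42.1% and 37.6% of the promoters tested, a mean change of -19.5% without overlap (9898 ± 346 against 7964 ± 637, SD, n = 2 each, exact permutation p = 0.333, adjusted p = 0.667). KO 1 had 8414 marked promoters on 202.7 Mb, fewer than the 9654 of WT 1 on 175.5 Mb, and without KO 2 the mean change was -15.0%. Promoter coverage averaged 31.8% and 34.5% of bases in WT and 29.4% and 25.3% in KO, also without overlap (-17.6%, exact permutation p = 0.333, adjusted p = 0.667). With every list cut to the covered length of KO 2, widest peaks first, marked promoters numbered 6391 and 5506 in WT and 5650 and 7513 in KO, and the mean change turned to 10.6% higher in KO. That cut left no peak under 958 bp in WT 1, 2340 bp in WT 2 and 1529 bp in KO 1 and left KO 2 whole, so it removed narrow peaks from 3 of the 4 lists.

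Promoters with a narrow peak were fewer in both KO libraries. The commonest peak width was 501 bp, which in a 2-kb promoter is 25.1% of the bases. The widest peak over the promoter was 501 bp at 1956 promoters in WT 1 and 1761 in WT 2, against 1200 in KO 1 and 1186 in KO 2. A widest peak over 501 bp and under 1 kb was found at 1369 and 1515 promoters in WT and at 982 and 956 in KO. The genotypes also did not overlap, by smaller gaps, at 1 to 2 kb (1105 and 1090 in WT, 1036 and 1041 in KO) and at 5 to 10 kb (1761 and 1823 in WT, 1749 and 1530 in KO). For peaks of 2 to 5 kb they overlapped, with 1932 and 1860 promoters in WT and 1879 in each KO library. At 10 kb and over the counts were 1531 and 2094 in WT and 1568 and 921 in KO, where the genotypes overlapped. Promoters covered over less than 50% of their bases numbered 3691 and 3639 in WT and 2648 and 2564 in KO.

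**Figure D2:**
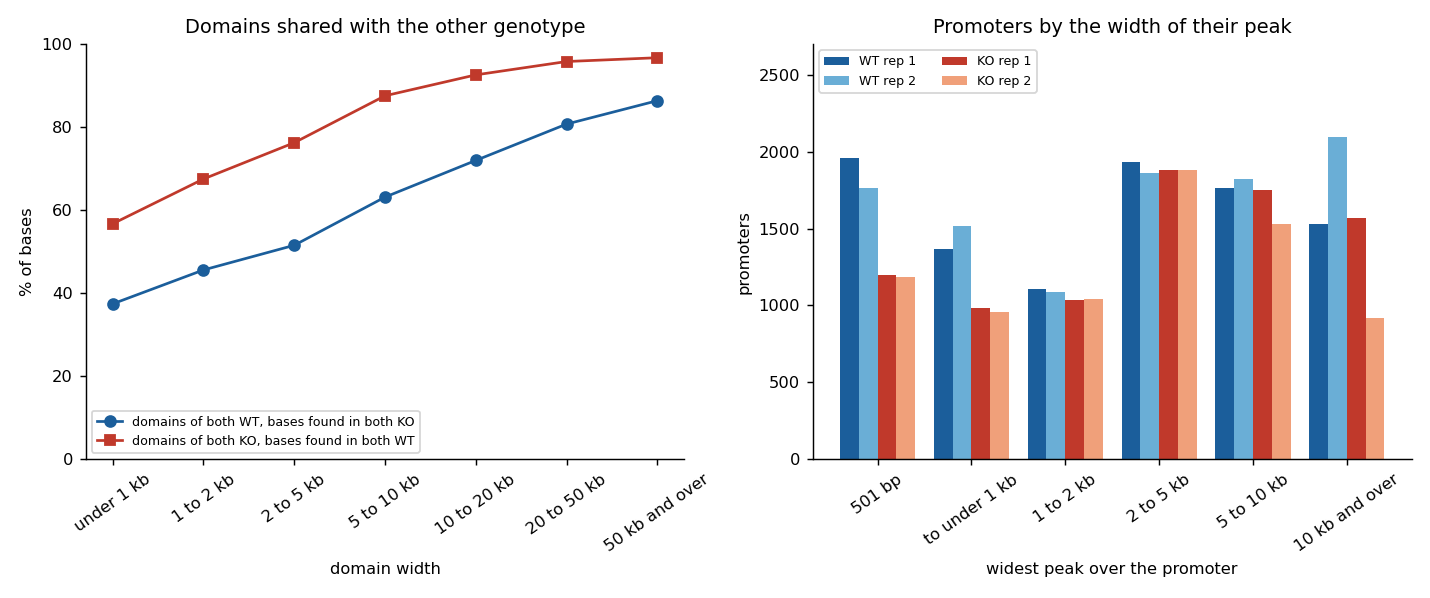
Left, the percent of bases (y axis) of domains common to both libraries of one genotype that were covered in both libraries of the other, by domain width (x axis); the share rises from 37.4% to 86.3% for WT domains and from 56.7% to 96.7% for KO domains. Right, the number of promoters (y axis) by the width of the widest peak over them (x axis) in each library; both KO bars are lower than both WT bars in both classes under 1 kb and, by less, at 1 to 2 kb and 5 to 10 kb, and those of 2 to 5 kb overlap.

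In total 1150 promoters were lost, 5.76% of those tested, and 93 were gained, 0.465%. A further 6894 were marked in all 4 libraries, 8916 in none and 2928 in other combinations. Both counts can only rise when 1 library is left out, as the call then has fewer conditions to meet. Then 1988 were lost without KO 1 and 1861 without WT 1, and 308 were gained without KO 2, 243 without WT 2 and 153 without KO 1. Promoters covered over 50% or more were seldom lost: of promoters marked in both WT libraries, 33.0% were lost where the lower WT coverage was 25 to 50%, 3.40% where it was 50 to 75%, 1.61% from 75% to under 100%, and 3 of 3433 where both WT libraries covered the whole window. Of the lost promoters, 575 (50.0%) had a widest peak of exactly 501 bp in both WT libraries and 108 had a peak of at least 1 kb in both. With peaks of at least 1 kb alone, the count of lost promoters was 430, of which 108 were among the 1150, and the gained count was 53. With every list cut to equal covered length, 99 promoters were lost and 183 gained.

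Over all genes together, the genotypes did not overlap at the gene start and overlapped 10 kb away. A peak covered the start base of 41.6% and 44.2% of genes in WT and of 35.1% and 30.7% in KO. At 10 kb before the start the shares were 13.2% and 15.9% in WT and 13.4% and 9.79% in KO, and KO 1 lay between the WT libraries. Promoters were then divided by the ratio of observed to expected CpG in the 2-kb window, over 0.6 (high), 0.35 to 0.6 (intermediate) and under 0.35 (low). In the high class the start base was covered in 46.9% and 48.7% of genes in WT and in 33.2% and 31.3% in KO. In the low class it was covered in 25.1% and 28.4% in WT and in 26.7% and 20.3% in KO, with overlap.

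**Figure D3:**
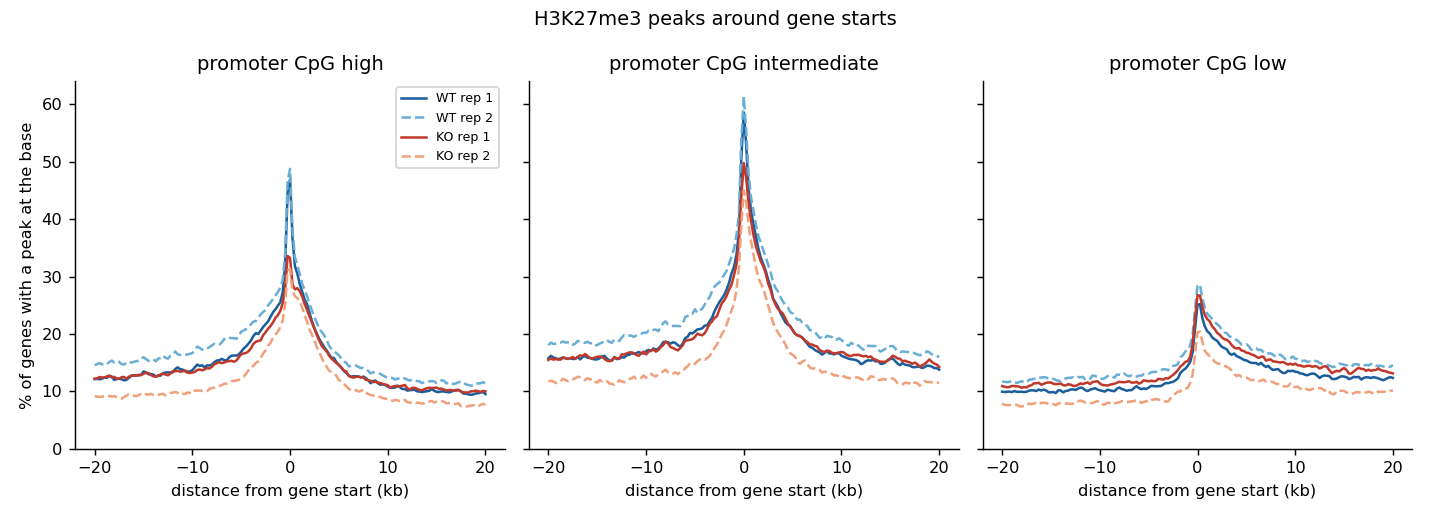
Percent of genes with a peak (y axis) at each distance from the gene start in kb (x axis) for promoters of high, intermediate and low CpG content, one line per library. At the start base of CpG-high genes the WT lines reach 46.9% and 48.7% and the KO lines 33.2% and 31.3%, and 10 kb past the start KO 1 lies between the WT lines in each class. At 10 kb before the start both KO lines lie below both WT lines in the high and intermediate classes.

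Marked promoters of the high CpG class numbered 3763 and 3879 in WT and 2870 and 2690 in KO, of 7008 tested. Of these 7008, 595 (8.49%) were lost and 11 gained. In the intermediate class 362 of 5282 (6.85%) were lost and 12 gained, and in the low class 193 of 7691 (2.51%) were lost and 70 gained. The median ratio of observed to expected CpG was 0.61 in lost promoters, 0.52 in kept ones and 0.26 in gained ones, beside 0.49 in all tested. With peaks of at least 1 kb alone, the lost shares were 2.4%, 2.57% and 1.64% in the high, intermediate and low classes, so the order of the first 2 was turned. With every list cut to equal covered length they were 0.385%, 0.511% and 0.585%, the reverse order. With KO 2 left out, 716 promoters of the high class were lost (10.2%) and 34 gained, and in the low class 231 were lost (3.00%) and 233 gained.

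The lost promoters with the highest WT coverage had whole windows covered in WT and no peak in KO. At Phlda3, which encodes a p53-induced inhibitor of Akt signalling, the promoter was covered at 100% in WT 1 and WT 2 and at 0 in KO 1 and KO 2, and the body at 27.9%, 33.5%, 0 and 0. Acsf2, an acyl-CoA synthetase gene, and Sorl1, which encodes a sorting receptor of neurons, were likewise covered at 100%, 100%, 0 and 0. Lrrc18 was covered at 100%, 98.8%, 0 and 0. Next in order stood 2 imprinted genes: Gnas, at 100%, 98.0%, 0 and 0, encodes the stimulatory G protein alpha subunit, and Zdbf2 was at 97%, 100%, 0 and 0. The window at Gnas is that of the outermost annotated start, chr2:174284320, and its body stayed covered at 26.0% and 19.6% in KO beside 23.9% and 31.3% in WT. Other lost promoters were those of H6pd, an enzyme of the endoplasmic reticulum that oxidizes hexose phosphate (85.4%, 87.2%, 0 and 0), Prex2, an activator of Rac (81%, 82.9%, 0 and 0), Hgsnat, a lysosomal acetyltransferase (81.2%, 80.0%, 0 and 0), and Sik1, a salt-inducible kinase (75.6%, 74.8%, 0 and 0).

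Gained promoters were few and most were CpG-poor. The first was Gm7030, a gene model of the major histocompatibility complex (MHC) region on chromosome 17, at 0 and 0 in WT and 100% and 84.7% in KO. A neighbour there, Gm11127, was at 0, 0, 100% and 81.6%. The window of chromosome 17 around the MHC, from 33000001, had 7 lost and 3 gained of 241 promoters, and 9 lower and 9 higher of 205 bodies. Over all genes tested, 5.76% of promoters were lost and 0.465% gained, and 2.87% of bodies were lower and 0.69% higher. The promoter of Fabp4, a fatty acid binding protein of adipocytes and macrophages, was at 0, 0, 55.6% and 56.5%, and that of Wls, which carries Wnt ligands to the cell surface, at 0, 0, 35.6% and 74.7%. Gm21738 on chromosome 14, 1 of the 11 gained promoters of the high CpG class, was at 0, 0, 84.5% and 84.3%. The members of near-identical families among these, such as MHC and olfactory receptor genes, share sequence, so reads may have been placed on a related copy.

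Gene bodies as a whole overlapped between the genotypes. Mean coverage was 14.5% and 16.5% of bases in WT and 15.5% and 12.2% in KO (-10.6%, exact permutation p = 0.667, adjusted p = 0.741). Without KO 2 the mean change was 0.092%. By the rule of a gap of 10 points, 515 bodies were lower (2.87%) and 124 higher (0.69%), of 17960. Leaving out KO 1 brought these counts to 1812 and 148, and leaving out KO 2 brought them to 552 and 593, so the preponderance of lower bodies rested on KO 2. Without WT 1, 1251 bodies were lower, and without WT 2, 302 were higher.

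Among lower bodies the largest gap was at Gdf15, a stress-induced cytokine of the TGF-beta family, whose body was covered at 85.7% and 87.5% in WT and at 0 in both KO libraries. Its promoter was covered at 0, 97.6%, 0 and 0, so the WT libraries differed there. Shbg, which encodes sex hormone-binding globulin, had a body coverage of 79.6% and 100% in WT and 7.76% and 8.09% in KO, while its promoter kept its peak (77.5%, 99.5%, 80.8% and 67.8%). Gsdmd, the pore-forming protein of pyroptosis, was at 69.8% and 77.0% in WT and 0 in both KO libraries, and its promoter was lost as well. For Tlr2, a receptor for bacterial lipopeptides, the body values were 68.8%, 89.5%, 0 and 0. Bst2, also called tetherin, which holds budding viruses at the cell surface, stood at 97.5%, 96.7%, 41.7% and 22.8%. Body coverage of Slc25a4, the ADP/ATP carrier of mitochondria, was 100% in both WT libraries and 55.7% and 52.1% in KO, with a promoter covered at 100% in all 4. Hfe, a regulator of iron uptake, was at 64.1%, 70.4%, 9.96% and 20.2%.

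In the other direction, the body of the MHC class I gene H2-T3 was covered at 0 and 3.01% in WT and 100% in both KO libraries. Zfp629, a zinc finger gene, was at 0, 22.5%, 97.7% and 98.1%. The body of Ddx39b, an RNA helicase gene in the MHC region with no promoter peak in any library, was at 0 and 0 in WT and 63.3% and 43.7% in KO. Olfactory receptor bodies made up 18 of the 124 higher bodies and 3 of the 515 lower ones, among 965 tested. Over all bodies, 0.69% were higher and 2.87% lower. Olfr94 was at 0, 0, 72.5% and 70.7%. Mean coverage of the olfactory receptor bodies was low in every library, at 3.29% and 3.95% in WT and 5.84% and 3.73% in KO, and overlapped.

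Among gene classes, most families of developmental regulators had no lost promoter. All 39 Hox, 9 Pax, 11 LIM homeobox, 4 Gata, 16 proneural bHLH and 17 Wnt genes tested had a promoter peak in all 4 libraries, beside 34.5% of all promoters. Hox promoters were covered at 98.9% and 99.3% of bases in WT and 95.6% in each KO library, and Hox bodies at 96.2%, 99.2%, 94.5% and 93.2%. Of 37 forkhead genes, 30, 30, 29 and 29 were marked and none was lost. Sox genes had 15, 15, 14 and 14 of 17 marked, with 12 marked in all 4 libraries and none lost, and of 16 T-box genes, with 14, 14, 13 and 13 marked, 1 (Tbx3, 6.25%) was lost, beside 5.76% of all promoters. The Nkx, Dlx, Irx and sine oculis-related homeobox genes had 32, 31, 31 and 30 of 32 marked. Of 22 endoderm and cardiac regulators 19 were kept in all 4 libraries and none was lost. Collagen genes and voltage-gated ion channel genes lost none of 42 and 54 promoters, and 34 and 48 were kept in all 4 libraries.

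Lower bodies in the lists of signalling and cell-cycle genes are given beside the 2.87% of all bodies that were lower. Of 33 FGF, BMP and GDF ligand genes, 4 bodies were lower and none higher: Gdf15 and, chosen after their values were seen, Fgf3 (94.9%, 95.1%, 72.3% and 57.5%), Fgf9 (63.1%, 72.9%, 46.8% and 38.5%) and Gdf11 (31.2%, 39.3%, 4.88% and 2.59%). Fgf3, Fgf9 and Gdf11 had a promoter peak in all 4 libraries. Among 4 cyclin-dependent kinase inhibitor genes with a measured body, 2 were lower. Cdkn2a was at 60.8%, 73.8%, 49.7% and 33.0% and Cdkn2b at 73.4%, 85.9%, 55.3% and 34.9%. Both lie side by side on chromosome 4 and act as brakes on the cell cycle. Of 17 NF-kB and cytokine feedback genes, 2 bodies were lower. Nfkbie, an inhibitor of NF-kB, was at 42.0%, 51.1%, 13.9% and 1.65%, and Cish, a feedback inhibitor of cytokine signalling, at 56.3%, 61.0%, 43.8% and 25.7%.

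Promoters of housekeeping machinery, which mostly lacked the mark, were marked in smaller numbers in both KO libraries. Subunits and assembly factors of respiratory complex I had 16 and 13 marked promoters of 41 in WT and 4 in each KO library, and 8 (19.5%) were lost, beside 5.76% of all promoters. Proteasome genes had 11 and 14 of 47 marked in WT against 4 and 5 in KO, with 6 lost (12.8%). Mitochondrial ribosomal protein genes had 22 and 24 of 67 against 13 and 10, with 6 lost (8.96%), and ribosomal protein genes 15 and 16 of 70 against 5 and 2, with 4 lost (5.71%). None of these 4 classes gained a promoter. The peaks were narrow: of the 8 complex I promoters lost, Ndufaf4, Ndufaf8, Ndufs6, Ndufa6 and Ndufv1 each carried a single 501-bp peak in both WT libraries (25.1% and 25.1%). Psmb2, Psmc4, Psma4 and Psmc6 of the proteasome had the same 25.1% in both WT libraries and 0 in KO. Rpl7 stood apart from the other ribosomal protein genes lost, with 60.1% and 57.2% in WT and 0 in KO. With peaks of at least 1 kb alone, no more than 5 promoters in any library were marked in each of these classes, and 2 ribosomal, 1 mitochondrial ribosomal and 1 proteasome promoters were lost.

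The zinc finger (Zfp) genes, many of which encode KRAB repressors of retrotransposons, had 134 and 134 of 374 promoters marked in WT against 91 and 77 in KO, with 27 lost (7.22%, beside 5.76% of all promoters) and 0 gained. Solute carriers had 200 and 210 of 335 against 180 and 168, with 16 lost (4.78%), a share below that of all promoters. For imprinted genes 33 and 33 of 46 were marked in WT against 29 and 28 in KO. The 4 lost (8.70%) were Gnas and Zdbf2 and, chosen after their values were seen, H13 and Trappc9, each at 25.1%, 25.1%, 0 and 0.

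**Figure D4:**
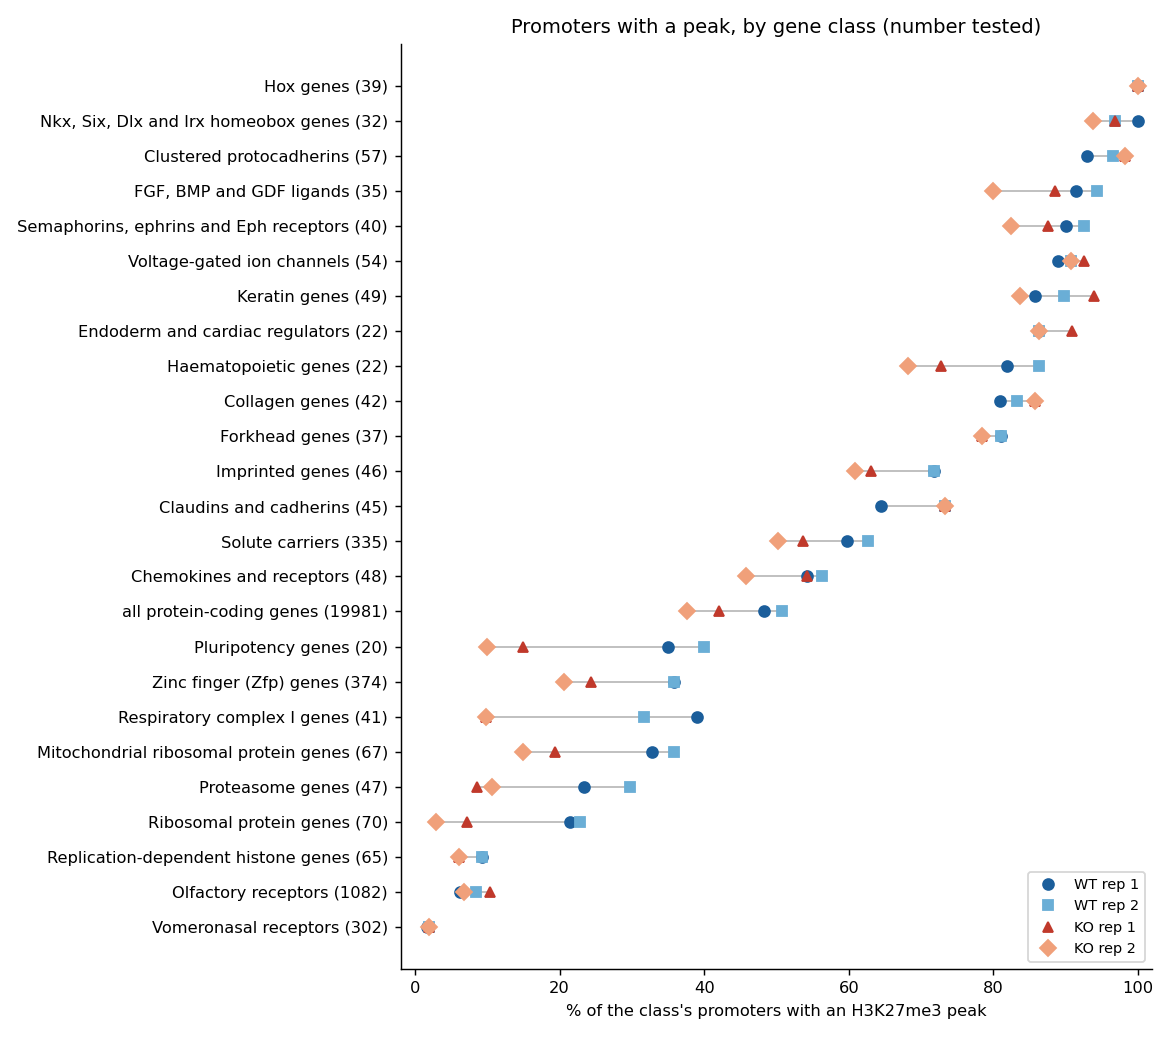
Percent of promoters with a peak (x axis) in each library (symbols) for gene classes of at least 20 tested promoters (y axis, number tested in brackets), ordered by the WT mean. Hox genes stand at 100% in all 4 libraries, and the KO symbols lie left of the WT symbols for complex I, proteasome, ribosomal and Zfp genes.

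Pluripotency genes, which ES cells express, were mostly unmarked. Pou5f1, Tfcp2l1, Tdgf1 and Dppa5a, which mark ES cells, had no peak over the promoter in any library, nor did Nanog, which lies in the distal part of chromosome 6 and is not among the 20 counted here. Sox2 was covered at 0, 11.2%, 0 and 0, Klf4 at 10.6%, 12.2%, 8.6% and 0, and Zfp42 at 25.1%, 0, 0 and 0. Esrrb, also a marker of these cells, went against that pattern, at 85.2%, 100%, 100% and 87.8% of the window at its outermost start. Dppa3, in the distal part of chromosome 6 and not counted here either, also went against it, with its promoter kept at 100%. Of 20 pluripotency promoters tested, 7 and 8 (35% and 40%) were marked in WT against 3 and 2 (15% and 10%) in KO. The shares over all promoters were 48.3%, 50.8%, 42.1% and 37.6%. The 2 lost (10%, beside 5.76% of all promoters) were Tbx3 (25.1%, 25.1%, 0 and 0) and Fgf4 (12.5%, 18.6%, 0 and 0). With peaks of at least 1 kb alone, or with equal peak numbers, 0 were lost. Prdm14, a repressor of differentiation that also marks these cells, went against the pattern except in KO 2, at 74.2%, 80.0%, 65.7% and 0. Its KO libraries thus differed from each other.

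Among the Polycomb genes themselves, the promoter of Ezh2 was at 25.1%, 25.1%, 0 and 0, that of Phf19 was covered at 100% throughout, and Eed, Suz12 and Jarid2 had none in any library. Of 10 PRC2 genes tested 1, Ezh2, was lost (10%, beside 5.76% of all promoters). Of 17 PRC1 genes 8 were kept in all 4 libraries and 0 lost. Tet2 itself had no peak over its promoter or body in any library, so the lists do not test the knockout. The DNA methyltransferase genes Dnmt3b (73.8%, 100%, 43.1% and 25.1%), Dnmt3l (74.5%, 99.6%, 46.6% and 39.5%) and Dnmt3a (85.5%, 84.2%, 74.2% and 75.3%) kept a promoter peak in all 4 libraries, with less of the window covered in both KO libraries. Haematopoietic regulators had 18 and 19 of 22 promoters marked in WT and 16 and 15 in KO. Of these 22, 15 were marked in all 4 libraries and 2 were lost (9.09%, beside 5.76% of all promoters), Lmo2 (23.4%, 21.4%, 0 and 0) and Klf1 (18.3%, 98.5%, 0 and 0). Of 19 germline genes 1, Stk31, was lost (31.5%, 37.9%, 0 and 0) and 1, Sycp3, was gained (0, 0, 39.5% and 25.1%). Each is 5.26% of the class, beside 5.76% lost and 0.465% gained of all promoters.

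Starts of noncoding genes were treated in the same way. Among protein-coding promoters, 5.76% were lost and 0.465% gained. Of 4998 lincRNA starts, 34.3% and 38.5% were marked in WT and 34.8% and 28.3% in KO, an overlap. Of these starts, 184 (3.68%) were lost and 61 (1.22%) gained. Antisense RNA genes had 95 lost (3.43%) and 20 gained (0.722%) of 2770. Processed pseudogenes went the other way in their calls, with 145 lost and 176 gained of 8527, and 17% and 19.4% were marked in WT and 21.9% and 16.4% in KO.

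The distal parts of chromosomes 6 and 13 differed from the rest of the autosomes. On chromosome 6 from 81000001 to its end, 8.66 and 10.5 Mb were covered in WT and 7.61 and 5.28 Mb in KO, and on chromosome 13 from 89000001, 2.36 and 3.07 Mb in WT and 1.87 and 1.25 Mb in KO. The log2 ratios of the KO to the WT mean were -0.57 and -0.80. In the other 19 chromosomes or chromosome parts they ran from -0.31 to -0.02 with a median of -0.19, and there the genotypes overlapped in each. The chromosome 6 part held 4.64% and 4.58% of the autosomal covered length in WT and 3.59% and 3.57% in KO, and the chromosome 13 part 1.26% and 1.34% against 0.883% and 0.847%. Neither share overlapped (-22.5% and -33.4%, exact permutation p = 0.333 and adjusted p = 0.667 each). For H2AK119ub in the same cells the shares were 5.15% and 5.17% in WT and 3.83% and 3.82% in KO on chromosome 6, and 1.34% and 1.33% against 0.687% and 0.685% on chromosome 13. Hematopoietic stem and progenitor cells (HSPCs), selected as Lin-c-Kit+ cells from bone marrow of wild-type and Tet2 knockout mice 6 to 8 weeks old, had H3K27me3 shares of 4.22% and 4.22% against 4.34% and 4.32% on chromosome 6, and 0.989% and 0.989% against 0.909% and 0.924% on chromosome 13. A change in the number of copies of these parts in a line and a change in the mark cannot be told apart from peak lists.

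Of the 630 promoters in the chromosome 6 part, 320 and 336 were marked in WT and 262 and 231 in KO, with 53 lost (8.41%) and 2 gained, and 54 of 571 bodies were lower and 3 higher. Of the 196 in the chromosome 13 part, 104 and 107 were marked in WT and 77 and 72 in KO, with 19 lost (9.69%) and 0 gained, and 14 of 166 bodies were lower and 0 higher. Outside these 2 parts, 5.76% of promoters were lost and 0.465% gained, and 2.87% of bodies were lower and 0.69% higher. The genes named here were chosen after their values were seen. Camk1, a calcium-dependent kinase gene, had its promoter covered at 96.8%, 96.8%, 0 and 0, and Suclg2, of the tricarboxylic acid cycle, at 68.2%, 82.6%, 0 and 0. The body of Timp4, an inhibitor of metalloproteinases, was at 75%, 94.1%, 11.6% and 13.7%. Dppa3, a maternal factor of the pluripotency list, kept its promoter at 100% and had a body at 100%, 100%, 76.4% and 68.5%. Isl1 on chromosome 13, a LIM homeobox gene, was at 100% over the promoter in all 4 libraries and at 82.1%, 90.2%, 86.3% and 82.3% over the body.

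**Figure D5:**
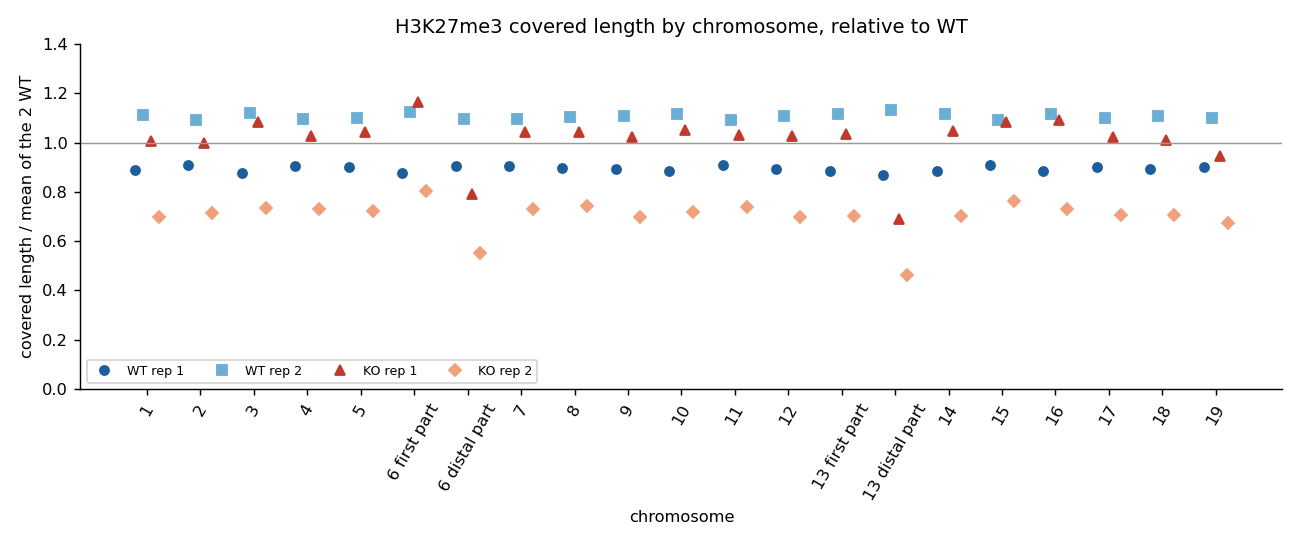
Covered length of each autosome or chromosome part (x axis) in each library, divided by the mean of the 2 WT libraries (y axis). In the distal parts of chromosomes 6 and 13 both KO symbols lie below both WT symbols, and elsewhere KO 1 lies above WT 1.

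Most promoters called lost for H3K27me3 had H2AK119ub, the mark of PRC1, in the same cells. Of the 1150 lost promoters, 93.0% and 94.3% had an H2AK119ub peak in WT and 94.3% and 92.3% in KO, beside 69.1% to 70.3% of all promoters and 96.1% to 97.1% of those with H3K27me3 in all 4 libraries. Their H2AK119ub coverage was 53.3% and 53.9% of bases in WT and 53.3% and 51.4% in KO. In HSPCs 83.8% and 84.7% of them had an H3K27me3 peak in WT and 84.7% and 84.3% in KO, beside 60.7% to 62.8% of all promoters.

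The number of promoters with H2AK119ub in mES cells was 13798 and 13967 for WT against 14052 and 13843 for KO. The log2 ratio of KO to WT for marked promoters was -0.31 for H3K27me3 and 0.01 for H2AK119ub, a difference of -0.32 (exact permutation p = 0.111, adjusted p = 0.444 over 4 tests, where no p below 0.056 was possible). In HSPCs 12123 and 12547 promoters had H3K27me3 in WT and 12361 and 12272 in KO, and the difference between the cell types was -0.31 (exact permutation p = 0.222, adjusted p = 0.444). For covered length the differences were -0.16 (exact permutation p = 0.667) against H2AK119ub and -0.23 (p = 0.5) against HSPCs, each with an adjusted p of 0.667. None of these differences passed the test.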

How the data were processed

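The authors made the libraries with a CUT&Tag kit and added Drosophila chromatin as a spike-in. Their notes name Trimmomatic 0.39 for trimming and Bowtie2 2.4.1 for alignment, followed by duplicate removal with Picard and broad peak calling with MACS2. HOMER 4.9 is listed without a role. The deposited files hold peak positions on mm10, 1 list per library, with other columns empty: no scores, reads or depth, so a spike-in factor cannot be applied and no interval for counting error can be given. Broad peaks were called per library, and the cutoff decides where faint signal becomes a peak, so a shallower library can give fewer and narrower peaks. All peak ends lay inside the GRCm38 chromosomes used for sequence. The K562 lists were not used, and 2 genes are not reported here.

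Gene starts came from GENCODE M21. Coverage, domains and calls were computed in Python 3.11.15 with numpy 2.4.6 and plotted with matplotlib 3.10.9, and the calls were tested on simulated lists. Single values were compared by two-sided exact permutation tests over libraries with Benjamini-Hochberg adjustment. Replicate numbers are shared by the genotypes but not said to pair libraries, and same-numbered libraries did not deviate together (correlation -0.14 over promoters). WT 1 and WT 2 had 68 identical peaks and KO 1 and KO 2 had 44, so no 2 libraries held the same list.

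Named genes were the members of short lists, the 20 lost promoters of highest lower WT coverage, 10 gained, and the 15 and 10 bodies with the largest gaps; the text gives a choice of them. The members, lists and gene classes were chosen with earlier results of these data known. Alternatives changed the peaks kept, the promoter window, the joining gap, the gene length, the call rule and the libraries.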

Additional observations from a re-analysis of the deposited data

How the results depend on the processing

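Of 151 recomputed values, 106 were classed as the same, 12 changed sign and 22 counts moved beyond a set ratio of the main count. The genotypes became separate in 10 and ceased to be in 1. For a percent change, the same meant an unchanged sign and separation of the genotypes. With the replicate number as a block, the sign alone counted. For a count, it meant a value within the set ratio. Cutting every list to equal covered length, which drops narrow peaks from the longer lists, gave percent changes of 1.63 for covered length, 10.6 for promoters with a peak, 8.86 for promoters per Mb and -32 for the N50, whose genotypes then overlapped, with 99 lost and 183 gained promoters and 251 higher bodies. Peaks of at least 1 kb gave -5.36% for peak number, 6.93% for promoters per Mb, 430 lost and 53 gained promoters. Equal peak numbers gave 1.37% and all autosomes -0.926% for peak number. Calling promoters at 50% covered bases gave 482 lost and 48 gained, genes of at least 10 kb gave 292 lower and 49 higher bodies, and a gap of 20 points gave 162 and 30. Leaving out 1 library at a time gave percent changes of -27.8 to 3.53 for covered length, -9.8 to 10.5 for peak number, -21.3 to 0.0923 for body coverage, -48.4 to -8.5 for length in domains of at least 10 kb and -18.6 to 4.29 for promoters per Mb. Counts ranged over 1368 to 1988 lost and 125 to 308 gained promoters and 552 to 1812 lower and 148 to 593 higher bodies. Such counts can only rise when a library is left out, since fewer libraries must meet the call. Marked promoters stayed between -24.1% and -15%, N50 between -31.3% and -15% and the chromosome 6 and 13 shares between -23% and -22% and between -35.3% and -31.5%. The positive covered length and body coverage came without KO 2, the lowest peak numbers and the positive promoters per Mb without WT 1 or KO 1 (-4.17% and -9.8%, 0.814% and 4.29%). With the replicate number as a block (replicate block), the changes were -9.55% for covered length, -19.4% for promoters, -22.2% for N50 and -22.5% and -33.4% for the shares, with 1150 lost, 93 gained, 560 lower and 144 higher. Same-numbered libraries did not deviate together (correlation -0.14 over promoters). A crossed pairing, chosen after seeing the data, gave 1150 lost, 93 gained, 923 lower and 205 higher. The promoter counts are the same under any pairing by definition, since the call asks for both WT and neither KO library. Only the body counts could move with the pairing. The causes of these changes were not tested. Without read counts, faint marks and shallow lists cannot be told apart.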
